A study of Mus musculus with 7 samples.

Results

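Cluster 7_delta is 1 of 17 clusters into which the authors divided single cells of mouse pancreatic islets by their gene counts, and one of those they named delta. Its members were taken from the authors' merged table of cells, where 322 of 5907 kept cells carry this name. Replicate 1 held 295 of them among 4814 kept cells (6.13%, 95% exact binomial interval 5.47 to 6.84), and replicate 2 held 27 among 1093 (2.47%, 1.63 to 3.57). They made up 30.6% and 8.49% of the cells named delta in these libraries. The cluster is described here against 3 larger endocrine clusters of the same libraries: 3_delta (435 and 157 cells in replicates 1 and 2), 4_beta (468 and 90) and 1_alpha (855 and 186).

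Both libraries were made from islets of female C57BL/6 mice aged 10 weeks, with no allele or agent named beyond the strain. Islets were released by collagenase and dissociated with Accutase. Cells were captured in droplets with a 5′ chemistry that was modified by extra dNTP and by lengthening one extension from 45 min to 2 h, insulin cDNA was removed with a Cas9 panel, and the remaining cDNA was read with Nanopore long reads. The series lists 7 samples in 4 groups, and the tables used cover the 2 modified 5′ libraries. Because insulin cDNA was depleted, Ins1 and Ins2 do not measure beta cell identity in these cells. Neither the number of mice in a library nor whether the libraries came from separate mice is stated in the labels, so the 2 libraries may be technical replicates. The p-values below rest on the spread left after a library term, estimated jointly over 12 clusters of both libraries. They are not known to measure variation between mice.

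Each islet endocrine type is known for the hormone it releases. Delta cells release somatostatin (Sst), which restrains their neighbours, beta cells release insulin together with islet amyloid polypeptide (Iapp), alpha cells glucagon (Gcg), PP cells pancreatic polypeptide (Ppy) and epsilon cells ghrelin (Ghrl). Some RNAs are known to stay in the nucleus, among them Malat1 and Neat1, while messenger RNAs of ribosomal proteins are short, abundant and cytoplasmic. A retained-intron transcript, in the gene annotation, is a transcript model that keeps an intron, or part of one, that other transcripts of the gene splice out.

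Cluster 7_delta was shallow in both libraries. A UMI (unique molecular identifier) counts 1 captured molecule, and the cluster held 336163 UMIs in replicate 1 and 177599 in replicate 2. A median cell had 929 UMIs in replicate 1 (range 599 to 3209) against 2110 over all kept cells, and 6532 in replicate 2 (2037 to 13624) against 9949. By median UMIs it ranked 2nd and 3rd from the bottom of the 17 clusters. Values are therefore given per library, and values per cell were taken after drawing 500 UMIs at random from each cell, which left no cell out. The libraries also stood apart in Xist, the RNA of the inactive X chromosome, with 1761 UMIs in replicate 1 and 27 in replicate 2 (160 and 2.23 CPM, which is the UMI count scaled to a common total) although both are labelled female, while the Y-linked Uty had 1 and 2 UMIs. Reads of Xist and its antisense partner cannot be told apart without the strand, and the part of this difference in the results was not tested. Cell barcodes shared by the libraries numbered 5, and 1 of them was in the cluster.

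The hormones of the cluster did not match its name in replicate 1 and did in replicate 2. After thinning to 500 UMIs, Iapp was the hormone with most UMIs in 150 of the 295 cells of replicate 1 (50.8%, 95% exact binomial interval 45.0 to 56.7). Sst led in 70 cells (23.7%, 19.0 to 29.0), Gcg in 51 (17.3%, 13.2 to 22.1) and Ppy in 18 (6.10%, 3.66 to 9.47), with 5 ties and 1 cell led by Ghrl. In replicate 2, Sst led in 25 of 27 cells (92.6%, 75.7 to 99.1), and Iapp and Ppy led in 1 cell each. The comparison clusters were uniform: Sst led in 95.9% and 96.2% of 3_delta, Iapp in 98.3% and 100% of 4_beta, and Gcg in 97.8% and 98.9% of 1_alpha. These leads compare UMIs of different genes with no correction for transcript length.

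**Figure D1:**
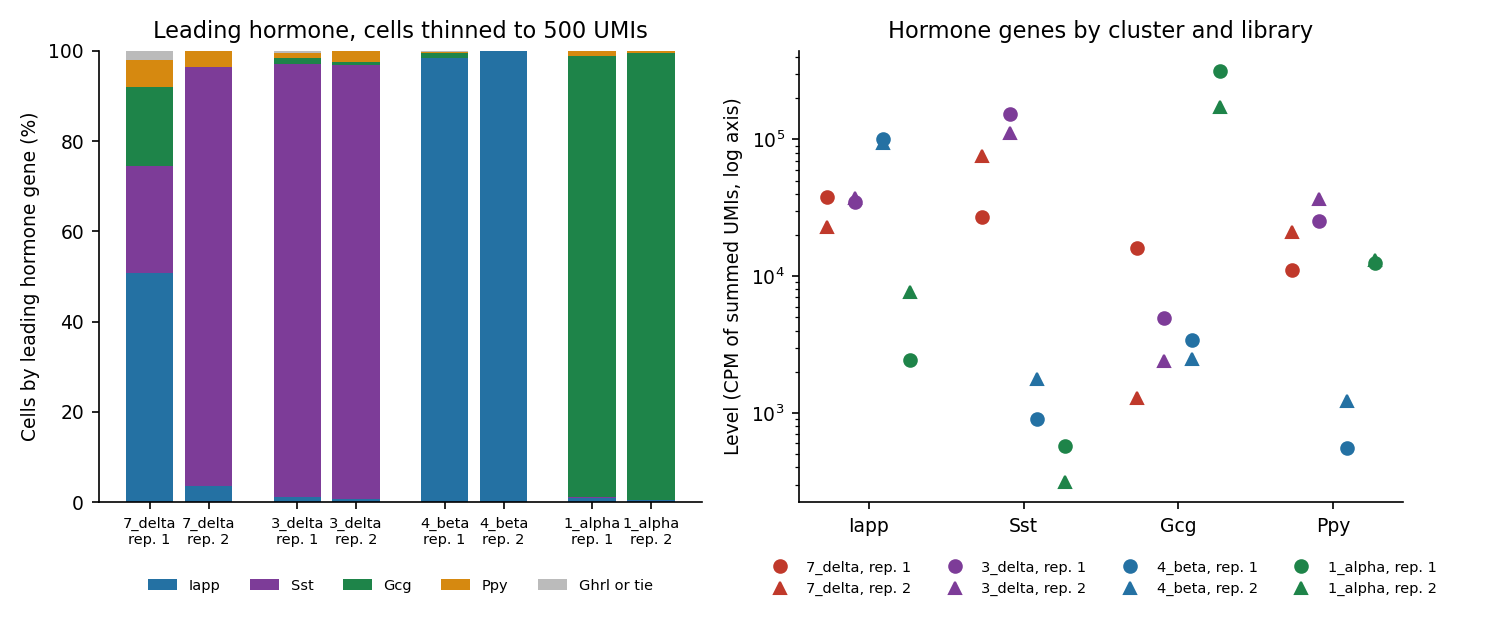
Left, share of cells (%) by the hormone gene with most UMIs after thinning each cell to 500 UMIs, for 4 clusters in each library; right, level of 4 hormone genes in CPM of summed UMIs on a log axis, 1 point per cluster and library. The cluster 7_delta bar of replicate 1 is mixed, with 50.8% of cells led by Iapp and 23.7% by Sst, while its replicate 2 bar is led by Sst in 92.6%.

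Summed over the cluster, Sst stood at 26978 CPM in replicate 1 and 75034 in replicate 2, against 153701 and 111202 in 3_delta. Iapp stood at 38023 and 22720 CPM, against 100215 and 93359 in 4_beta. Gcg stood at 16186 and 1278 CPM, against 314643 and 173562 in 1_alpha. For each hormone the cluster lay below the endocrine cluster that hormone marks in both libraries, and for Gcg in replicate 2 it lay below 3_delta (2409 CPM) as well. Ghrl had 45 UMIs in the whole cluster, all in 1 cell of replicate 1, and none in replicate 2, so the cluster as a group carried no ghrelin signal.

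The cluster's cells of replicate 1 also carried fewer hormones each than 3_delta. A median cell there had 1 hormone with at least 2 UMIs of 500, against 3 in 3_delta and 1 in both 4_beta and 1_alpha. The upper quartile was 3, as in 3_delta, against 1 in 4_beta and 2 in 1_alpha. A median cell of the cluster in replicate 2 had 3 such hormones, the same as in 3_delta. Gcg was seen in 52.5% of the cluster's cells in replicate 1 and 51.9% in replicate 2, yet its median was 1 UMI in each. Quiescent stellate cells, which should lack these hormones, had a Gcg UMI in 35.6% and 70.4% of cells and an Iapp UMI in 30.5% and 88.9%. These cells were likewise thinned to 500 UMIs, from median depths of 901 and 3319. Sst reached 9.32% and 14.8% of those stellate cells, far under the 43.7% and 100% in cluster 7_delta. Gcg shares in replicate 2 therefore did not exceed background.

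Identity genes other than the hormones followed the leading hormone in replicate 1. The beta set without the hormones (11 genes, among them the glucose transporter Slc2a2, the phosphatase subunit G6pc2 and the transcription factor Nkx6-1) summed to 10895 CPM in the 150 cells led by Iapp (95% Poisson interval 10442 to 11363), close to the 10505 of 4_beta. In those cells G6pc2 was at 2475 CPM, Slc2a2 at 1297 and Nkx6-1 at 546, against 2767, 1281 and 401 in 4_beta. The 51 cells led by Gcg had 8258 CPM of Ttr, the transthyretin gene that marks alpha cells, and an alpha set of 8760 CPM, against 37927 and 39282 in 1_alpha. The 70 cells led by Sst had a delta set of 3973 CPM (3510 to 4480) against 9222 in 3_delta, made mostly of Rbp4 (3241 against 8139), which encodes retinol-binding protein. Hhex, the homeobox factor required by delta cells, was at 358 CPM in the cells led by Sst, at 425 in 3_delta and at 5.01 in the cells led by Iapp. The hormones and these genes both helped to make the clusters, so the match is a description.

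In replicate 2 the 25 cells led by Sst had 354 CPM of Hhex (267 to 459) against 300 in 3_delta, with a delta set of 3613 CPM against 7459. Beta set genes were present in the same cells at 2286 CPM (2057 to 2534) against 986 in 3_delta and 8526 in 4_beta. Nkx6-1 was at 202 CPM against 46.1 in 3_delta, Ero1lb, an oxidase of disulfide formation, at 638 against 245, the zinc transporter Slc30a8 at 373 against 125, and G6pc2 at 347 against 150. The corresponding beta set in the cells led by Sst in replicate 1 was 717 CPM, near the 712 of 3_delta. Thus the beta genes beside Sst were seen in replicate 2 and not in replicate 1, and the difference between libraries was not tested. Irx2, an alpha cell transcription factor, was at 0 UMIs in these cells.

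Markers of cell types outside the endocrine islet were few, apart from Krt7 of the duct set. Endothelial markers (9 genes) summed to 107 and 50.7 CPM in cluster 7_delta, against 15.3 to 53.3 over the comparison clusters and libraries, and Cdh5 was at 0. Stellate and pericyte markers summed to 11.9 and 0 CPM, with Rgs5 and Pdgfrb at 0. Macrophage markers summed to 38.7 and 101 CPM, almost all of it C1qa, with Adgre1 at 0, against 73.1 to 142 in the comparison clusters. Acinar markers summed to 5.95 and 50.7 CPM against 2.61 to 55.2 in the comparison clusters. Among duct markers Krt7 had 69 and 27 UMIs in cluster 7_delta and Spp1 10 and 2, with Krt19 and Cftr at 0. Among lymphocyte markers Cd79a had 10 and 2 UMIs. In both sets no gene was called higher in any comparison, and 1 of each was called lower against 4_beta. Over all genes tested, 6.01% were lower in that comparison. Few members could be called at all. Of 5 duct genes, 2, 1 and 1 had enough UMIs against 3_delta, 4_beta and 1_alpha. Of 4 lymphocyte genes in the data, 0, 1 and 0 had. Scrublet, which scores likely doublets, called 2 cells of the cluster in replicate 1 and none in replicate 2, but it called only 0.145% and 1.46% of all kept cells.

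The authors' other clusterings named the same cells differently. When replicate 1 was clustered alone on genes, 155 of its 295 cells were named beta (52.5%), 102 delta (34.6%), 35 alpha and 3 PP. Alone on transcripts, 151 were named delta (51.2%), 120 beta (40.7%), 21 alpha and 3 PP. Clustering of both libraries on transcripts named 80.7% of them delta and 13.9% beta. In replicate 2, clustering of both libraries on transcripts named 24 of 27 delta, while clustering of that library alone on transcripts named 18 of 27 beta (66.7%, 46.0 to 83.5) and 9 delta. Cells of 3_delta, 4_beta and 1_alpha kept their type's name in 95.5% or more of cells under each of these clusterings. The delta name of cluster 7_delta is thus the one that moved between the authors' own tables.

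What the cells shared across hormones and libraries was the composition of their RNA. The 84 ribosomal protein genes took 1.60% of UMIs in replicate 1 and 2.41% in replicate 2, the lowest share of the 17 clusters in both. The share was 3.81% and 4.89% in 3_delta, 3.41% and 4.01% in 4_beta, and 4.59% and 6.79% in 1_alpha. Malat1 stood at 20380 and 17140 CPM, the highest of the 17 clusters in both libraries, against 9987 and 6302 in 3_delta, 6958 and 9765 in 4_beta, and 7921 and 4304 in 1_alpha. Transcripts annotated as retained introns took 7.24% and 6.32% of transcript UMIs, again the highest of the 17, against 2.94% and 2.44% in 3_delta, 3.32% and 4.24% in 4_beta, and 2.77% and 2.09% in 1_alpha. In all 3 measures both libraries of cluster 7_delta lay outside the range of the comparison clusters.

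**Figure D2:**
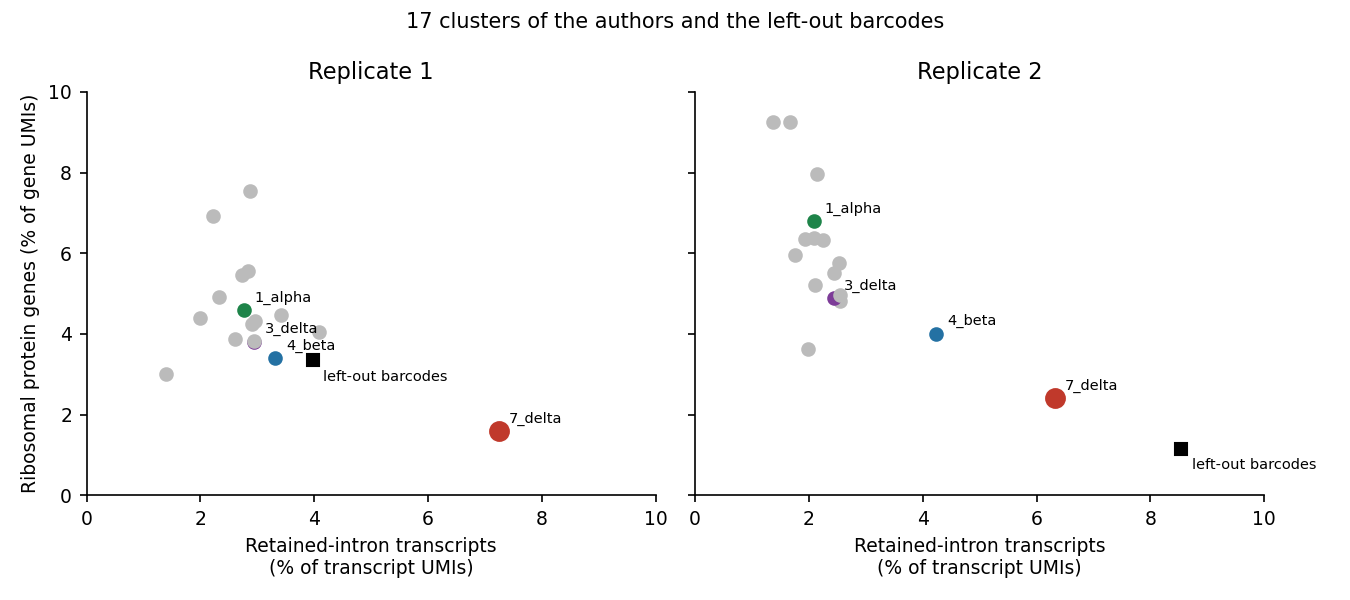
Share of gene UMIs in ribosomal protein genes (%) against share of transcript UMIs in retained-intron transcripts (%), 1 point per cluster of the authors, with the barcodes left out of the authors' table as a black square, by replicate. Cluster 7_delta sits at 7.24% and 1.60% in replicate 1 and at 6.32% and 2.41% in replicate 2, to the lower right of the other 16 clusters.

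Fewer of the cluster's molecules were assigned to an annotated transcript. Transcript UMIs were 72.2% and 77.1% of gene UMIs, the lowest of the 17 clusters in both libraries, against 87.3% and 90.7% in 3_delta and 80.5% in both libraries of 4_beta. Transcripts with a single exon made up 25.0% and 25.9% of its transcript UMIs, against 10.4% and 12.3% in 3_delta and 16.1% and 23.1% in 4_beta. The mean annotated length of its transcripts, without the hormones and Malat1, was 2760 and 2531 bases, against 2195 and 2024 in 3_delta. Mitochondrial genes took 1.66% and 3.59% of UMIs, above 3_delta (0.880% and 1.66%) and below 4_beta (1.88% and 5.17%).

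Because cluster 7_delta was shallow, cells of like depth were compared. Other endocrine cells whose UMIs fell in the middle 50% of the cluster's own range (420 and 229 cells) had 3.28% and 2.27% retained-intron UMIs, against 7.26% and 5.84% for cluster 7_delta in that range. Their ribosomal share was 3.89% and 5.51% against 1.97% and 2.60%, and their Malat1 was 8322 and 5136 CPM against 20529 and 16092. The differences were thus present at matched depth in both libraries. Barcodes that the authors left out of their table had 3.97% and 8.55% retained-intron UMIs, 3.35% and 1.16% ribosomal UMIs, and 3.63% and 8.42% mitochondrial UMIs. The left-out barcodes of replicate 2 thus lay past cluster 7_delta in all of these measures, and those of replicate 1 lay nearer to the other clusters in retained introns and ribosomal share.

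The same profile was found whichever hormone led. In replicate 1, retained-intron UMIs were 7.01% in cells led by Iapp, 7.61% in cells led by Sst, 7.19% in cells led by Gcg and 6.24% in cells led by Ppy. Ribosomal shares in those groups were 1.34%, 2.16%, 1.88% and 2.09%. In the 25 cells of replicate 2 led by Sst the values were 5.98% and 2.51%. Each of these 5 groups lay outside the range of 3_delta, 4_beta and 1_alpha in its own library for both measures.

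Per cell, the shift was graded. At 500 UMIs a median cell of cluster 7_delta had 9 ribosomal UMIs in replicate 1 (quartiles 3 and 14) and 10 in replicate 2 (3 and 18.5), against 19 and 24 in 3_delta, 18.5 and 21 in 4_beta, and 22 and 32 in 1_alpha. Malat1 had a median of 7 and 9 UMIs, against 4 and 2, 2 and 4, and 3 and 2. A split at 4 ribosomal UMIs, chosen after these values were seen, put 103 of 295 cells (34.9%) and 9 of 27 cells (33.3%) in the low class, against 0.690% and 0% of 3_delta, 6.20% and 0% of 4_beta, and 0.936% and 0% of 1_alpha. The low class had 11% and 12.4% retained-intron UMIs and 29349 and 30708 CPM of Malat1. The remaining cells still had 4.99% and 4.60% retained-intron UMIs and 13795 and 12336 CPM of Malat1, above the comparison clusters of their library in both. Low-class cells also held less Sst, with 6773 and 26595 CPM against 41813 and 92184 in the remaining cells. Iapp was lower in them as well, with 26173 and 12942 CPM against 46724 and 26181. The retained-intron and Malat1 profile of the low class was not particular to cluster 7_delta. In replicate 1 the low classes of 3_delta (3 cells), 4_beta (29) and 1_alpha (8) had 8.08%, 6.32% and 8.26% retained-intron UMIs. Their Malat1 stood at 37294, 15605 and 24301 CPM.

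**Figure D3:**
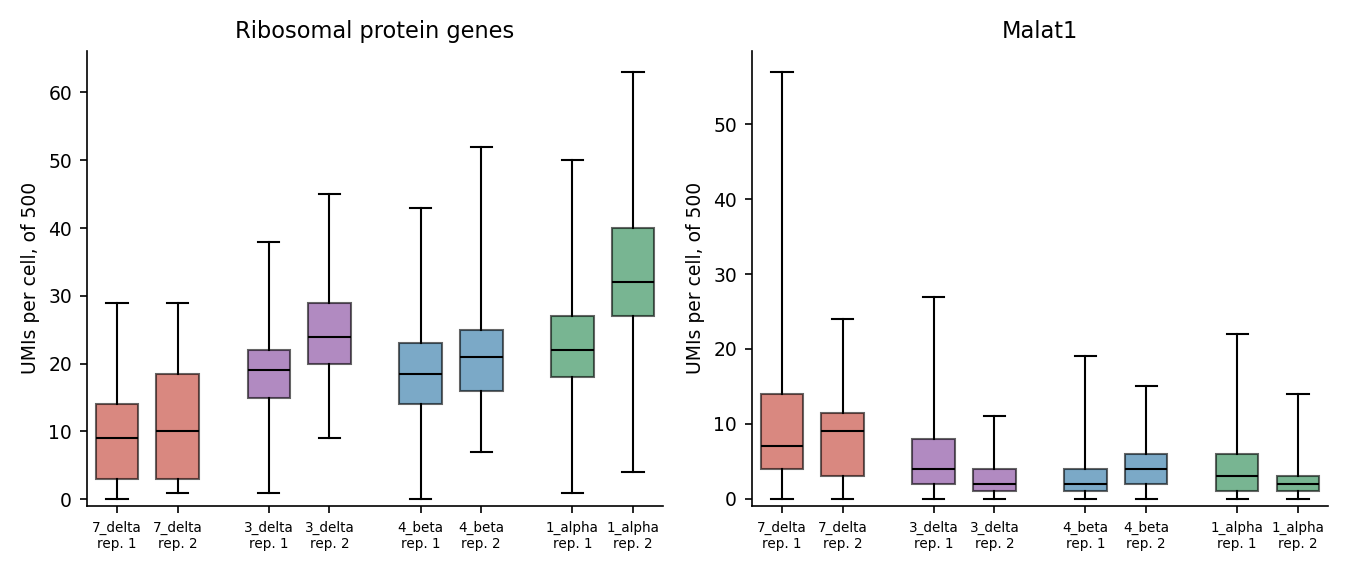
UMIs of ribosomal protein genes (left) and of Malat1 (right) per cell after thinning each cell to 500 UMIs, for 4 clusters in each library; boxes are quartiles with the median, whiskers the full range. Cluster 7_delta has the lowest ribosomal medians (9 and 10 UMIs) and the highest Malat1 medians (7 and 9 UMIs) in the plot.

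Gene levels were then compared across all genes. A gene was called when its CPM + 5 differed at least 2-fold in the same direction in both libraries, with at least 20 UMIs in the higher cluster in each. Because gene counts made the clusters, these calls are a description without a test. Against 3_delta, 550 of 3436 genes were called (16%), 245 of them higher (7.13%) and 305 lower (8.88%). Against 4_beta, 276 of 3609 were called (7.65%), 59 higher (1.63%) and 217 lower (6.01%). Against 1_alpha, 609 of 2890 were called (21.1%), 407 higher (14.1%) and 202 lower (6.99%). The split depended on the scaling: the median log2 ratio over 7158 genes was 0.33 and 0.29 against 3_delta, 0.07 and -0.03 against 4_beta, and 0.66 and 0.47 against 1_alpha, and with trimmed mean of M-values (TMM) scaling it was between -0.22 and -0.13. With TMM scaling the calls became 31 higher and 1079 lower of 4746 genes against 3_delta, 32 and 432 of 4209 against 4_beta, and 79 and 917 of 4841 against 1_alpha. With the hormones left out of the totals they became 126 higher and 558 lower against 3_delta, and 213 of 605 calls were higher against 1_alpha. Gene groups are therefore given with their median relative to the all-gene median of the same comparison, beside their calls. The calls of a group are to be read against these all-gene counts at the same scaling. Not every listed gene had enough UMIs to be tested.

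Ribosomal protein genes lay below the all-gene median in all 3 comparisons. Of 30 listed genes, 13 were called lower against 3_delta, 3 against 4_beta and 24 against 1_alpha, and none was called higher (26, 7 and 28 lower with TMM scaling). Ribosomal protein genes have many near-identical copies, and how reads were divided among them is not stated. The list's median lay below the all-gene median by 1.48 and 1.28 log2 units in replicates 1 and 2 against 3_delta, by 1.07 and 0.57 against 4_beta, and by 2.07 and 1.86 against 1_alpha. Rps2, of the small subunit, stood at 904 and 828 CPM, against 2003 and 1718 in 3_delta, 2395 and 1972 in 4_beta, and 2411 and 2595 in 1_alpha. Rps4x stood at 895 and 1081 CPM against 2695 and 2241 in 3_delta. Eef1a1, the elongation factor that delivers transfer RNA to the ribosome, stood at 1410 and 1599 CPM, against 3644 and 3325 in 3_delta, 2975 and 2137 in 4_beta, and 3109 and 3546 in 1_alpha.

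The nuclear-encoded genes of oxidative phosphorylation lay below the all-gene median as well, while those of the mitochondrial genome lay above it against 3_delta and 1_alpha. Of 18 listed nuclear genes, 1 was called lower against 3_delta, 8 against 4_beta and none against 1_alpha (9, 11 and 7 with TMM scaling), with the median below the all-gene median by 0.96 and 1.13, 1.18 and 1.06, and 0.59 and 1.06. Outside that list, Atp5c1, a subunit of ATP synthase, stood at 116 and 118 CPM, against 357 and 365 in 3_delta. Cox8a, of cytochrome c oxidase, stood at 235 and 400 CPM against 481 and 1202 in 4_beta. Of the 13 genes of the mitochondrial genome, 10 had a mean of at least 20 CPM. Their median was above the all-gene median by 0.71 and 0.83 against 3_delta and by 0.38 and 0.53 against 1_alpha. It was below the all-gene median by 0.22 and 0.47 against 4_beta. None of the 13 was called against 3_delta or 4_beta, and 2 were called higher against 1_alpha (none with TMM scaling). mt-Cytb stood at 5099 and 9105 CPM, against 2925 and 4368 in 3_delta, 6224 and 13699 in 4_beta, and 2308 and 4132 in 1_alpha.

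As a group, nuclear noncoding RNAs were on the opposite side, though not every member was. Of 7 listed, Xist among them, 3 were called higher against 3_delta, 4 against 1_alpha and none against 4_beta, and none was called lower. Their median exceeded the all-gene median by 0.82 and 0.64 against 3_delta, 0.87 and 0.24 against 4_beta, and 0.87 and 0.85 against 1_alpha. Neat1, which builds nuclear paraspeckles, stood at 229 and 366 CPM, against 37.2 and 83.0 in 3_delta, 159 and 316 in 4_beta, and 22.0 and 20.8 in 1_alpha. Rian, an imprinted noncoding RNA, stood at 482 and 445 CPM against 214 and 191 in 3_delta. Meg3, of the same imprinted locus, stood at 3070 and 3069 CPM against 2303 and 1610 in 3_delta and was not called. Under TMM scaling 1 of the 7 was called higher against 3_delta and 1 against 1_alpha. Without TMM scaling, 6, 4 and 6 of the 7 lay above 3_delta, 4_beta and 1_alpha in both libraries. Snhg11 lay below 1_alpha in both, at 65.4 and 33.8 CPM against 71.6 and 67.3.

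Stress and secretory genes did not share one direction. Over all genes tested, 7.13%, 1.63% and 14.1% were called higher against 3_delta, 4_beta and 1_alpha, and 8.88%, 6.01% and 6.99% lower. With TMM scaling 1079 of 4746, 432 of 4209 and 917 of 4841 genes were lower. Of the immediate early genes below, 13, 10 and 13 had enough UMIs in these comparisons. Of 18 immediate early and dissociation genes, 5 were called higher against 4_beta, 1 higher against 3_delta, and 1 higher and 2 lower against 1_alpha, and with TMM scaling 3 were higher against 4_beta, 1 lower against 3_delta and 5 lower against 1_alpha. Their median differed from the all-gene median by 0.04 and -0.38 log2 units against 3_delta, 0.99 and 1.38 against 4_beta, and -1.08 and -0.36 against 1_alpha. Fosb, an immediate early transcription factor, stood at 767 and 1126 CPM, against 375 and 401 in 3_delta and 238 and 439 in 4_beta. Jun stood at 419 and 1441 CPM against 145 and 325 in 4_beta, but 454 and 1624 in 3_delta. Among 24 genes of protein folding in the endoplasmic reticulum, 2 were called higher against 3_delta, 2 lower against 4_beta and 1 higher against 1_alpha, and with TMM scaling 2 were lower against 3_delta, 3 lower against 4_beta and none was called against 1_alpha. Their median differed from the all-gene median by -0.25 and -0.39, -0.52 and -0.48, and 0.19 and -0.36. Among 16 secretory granule genes, 2 were called higher and 2 lower against 3_delta, none against 4_beta, and 3 higher and 3 lower against 1_alpha, where TMM scaling gave none higher and 6 lower. Against 3_delta TMM scaling gave 2 higher and 5 lower, and the median differed from the all-gene median by -0.20 and -0.52, -0.32 and -0.30, and 0.10 and -0.84. Among 15 exocytosis genes, 2 were called higher against 3_delta and 3 against 1_alpha, and with TMM scaling 1 was higher and 2 lower against 3_delta and 1 higher against 1_alpha. The exocytosis median exceeded the all-gene median by 0.58 and 0.23, 0.18 and 0.04, and 0.23 and 0.26. Syt13, a synaptotagmin, stood at 628 and 586 CPM against 273 and 270 in 3_delta. None of 10 cell death genes was called in any of the comparisons, in which 3, 5 and 5 of them had enough UMIs, and with TMM scaling 1, 1 and 2 were called lower. Of 14 housekeeping genes, 2 were called lower in each comparison (7, 2 and 7 with TMM scaling), with the median below the all-gene median by 0.88 and 0.89, 0.83 and 0.37, and 0.84 and 0.92.

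Among islet transcription factors (20 genes), 1 was called higher against 3_delta, 3 against 4_beta, and 6 higher and 4 lower against 1_alpha. With TMM scaling these became 1 higher, 2 higher and 1 lower, and 3 higher and 5 lower, and the median exceeded the all-gene median by 0.27 and 0.17, 0.31 and 0.11, and 0.39 and 0.72. Rfx6, which is required for islet cell formation, stood at 309 and 287 CPM, against 231 and 133 in 3_delta, 135 and 137 in 4_beta, and 104 and 55.7 in 1_alpha. Pax6, needed for hormone genes in all endocrine types, stood at 345 and 400 CPM against 138 and 139 in 1_alpha. Isl1 stood at 345 and 529 CPM against 401 and 380 in 3_delta and was not called.

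By size, the genes furthest above 3_delta in both libraries included beta cell genes and long genes. Nkx6-1 stood at 333 and 208 CPM against 44.0 and 46.1, Slc30a8 at 1324 and 445 against 86.1 and 125 and Insrr, an insulin receptor relative, at 277 and 349 against 59.7 and 98.8. Chd7, a chromatin remodeller, stood at 128 and 152 CPM against 24.5 and 37.0, and Vps13b, a lipid transfer protein gene, at 128 and 146 against 31.3 and 39.4. Itpkb, Mical3, Prss53 and Vmn1r206 completed the 10 with Neat1. Genes furthest below 3_delta included Caly, a neuronal vesicle protein gene (17.8 and 11.3 CPM against 155 and 164), the proteasome subunit Psmb5 (47.6 and 56.3 against 211 and 213) and the dynein light chain Dynll1 (44.6 and 95.7 against 211 and 345). Ambp, Ifnar2, Scoc, Tmem59l, Emc6, Atp5c1 and Smim6 completed that list.

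Against 4_beta the genes furthest up were those of other endocrine types, led by Sst, Pyy and Ppy. Pyy, the peptide YY gene, stood at 7282 and 28153 CPM against 324 and 1319, and Ppy at 11170 and 20969 against 559 and 1220. Hhex stood at 86.3 and 327 CPM against 2.61 and 4.47, and the PP cell factor Etv1 at 158 and 259 against 10.4 in both libraries. Dpp6, Ly6h, Tspan8, Arg1 and Stxbp5l followed. Of 14 beta markers, 6 were called lower, against 6.01% of all genes tested, and all 14 lay below 4_beta in both libraries. Ins1 and Ins2, whose cDNA was depleted, are among the 6 called lower and do not measure beta cell identity here. The same set went up in the other comparisons. Against 3_delta 5 of the 9 with enough UMIs were called higher, and against 1_alpha 6 of 10. The all-gene shares called higher there were 7.13% and 14.1%. Genes furthest down were Msln, Nupr1, Cox6a2, Fdps, Fkbp11, Ndufb6, Mns1, Mrpl32, Nop10 and Mif, of which Cox6a2, a subunit of cytochrome c oxidase, stood at 56.5 and 39.4 CPM against 238 and 245.

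Against 1_alpha, all 9 alpha markers were called lower, against 6.99% of all genes tested. Edn3, an endothelin gene, had 0 UMIs in cluster 7_delta in both libraries against 126 and 115 CPM in 1_alpha. Ttr stood at 2088 and 490 CPM against 37927 and 60520. Genes furthest up were Sst, Sez6l, Shisal2b, Hhex, Mlxipl, Ly6h, Nnat, Insrr, Dpp6 and Sdk2, of which Mlxipl, the carbohydrate response factor, stood at 503 and 462 CPM against 17.6 and 26.3. These 3 comparisons share the cells of cluster 7_delta, so a gene named in more than 1 of them is not counted as repeated evidence.

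The cluster's genes were ordered by the length they span in the genome. Over 6806 protein-coding genes, without ribosomal protein and hormone genes, the median log2 ratio to 3_delta was -0.55 and -0.69 for 669 genes spanning up to 5 kb, -0.07 and -0.12 for 2064 genes of 5 to 20 kb, 0.50 and 0.45 for 2688 genes of 20 to 80 kb, and 0.83 and 0.87 for 1385 genes over 80 kb. Against 4_beta the same bins gave -0.56 and -0.51, -0.19 and -0.17, 0.17 and 0.02, and 0.43 and 0.26. Against 1_alpha they gave -0.08 and -0.43, 0.34 and 0.10, 0.78 and 0.62, and 1.08 and 1.06. In all 3 comparisons and both libraries the medians increased from bin to bin. A change of scaling moves all bins together and leaves this order, but it can move the sign of a bin.

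**Figure D4:**
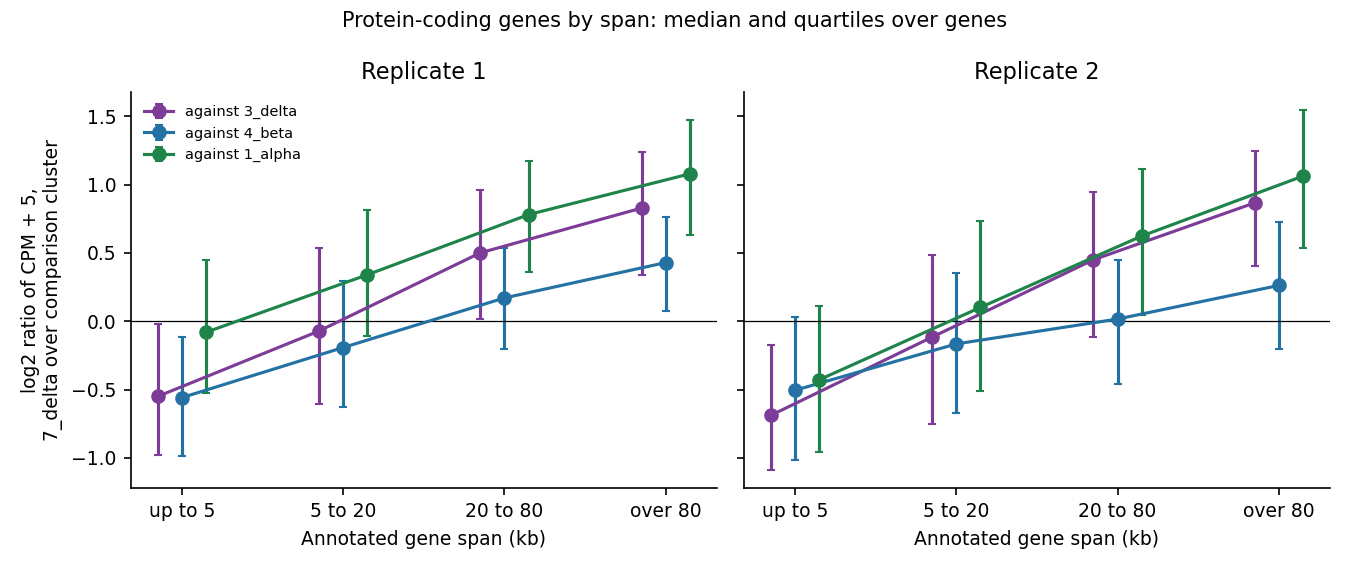
Median log2 ratio of CPM + 5 of cluster 7_delta over each comparison cluster, with quartiles over genes as bars, for protein-coding genes in 4 bins of annotated span in kb, by replicate. Every line climbs from left to right, from -0.55 and -0.69 in the shortest bin against 3_delta to 0.83 and 0.87 in the longest.

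Isoform usage was tested, since the clusters were made from gene counts and not from the shares of transcripts within a gene, although the same molecules enter both. The fraction of a gene's molecules assigned to each of its transcripts was compared with edgeR's diffSpliceDGE in a model with the library as a block, with Benjamini-Hochberg adjustment over all genes tested. Against 3_delta, 42 of 2885 genes passed an adjusted p of 0.05 (1.46%), against 1_alpha 27 of 2913 (0.927%), and against 4_beta 1 of 2086 (0.0479%). Unadjusted p-values under 0.05 numbered 308, 244 and 130. Counts followed depth: with the comparison cluster thinned to the total of cluster 7_delta, 8, 1 and 1 genes passed, so the difference in counts between the comparisons does not rank the clusters, and it was not tested.

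Against 3_delta and 1_alpha, most genes that passed were led by a retained-intron transcript with a higher share in cluster 7_delta, and against 4_beta none of 1421 retained-intron transcripts passed. The transcript with the smallest p was a retained intron in 27 of the 42 genes against 3_delta and in 16 of the 27 against 1_alpha, and its share rose in both libraries in all of them. Passing the test itself favours 1 direction in both libraries. Of single transcripts past an adjusted p of 0.05 against 3_delta, 30 of 1878 retained-intron transcripts had a higher share and none a lower one, while protein-coding transcripts gave 6 higher and 4 lower of 4405. Against 1_alpha, 18 of 2064 retained-intron transcripts were higher and none lower. Over genes with at least 30 UMIs in each cluster and library, the median change in share of retained-intron transcripts was 3.85 and 5.09 percentage points against 3_delta (95 transcripts), 4.11 and 2.97 against 4_beta (95) and 2.98 and 4.59 against 1_alpha (98). Protein-coding transcripts of such genes had medians of -3.45 and -3.00, -2.01 and -2.38, and -2.66 and -3.36.

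Splice sites that these retained-intron models read through are shown for 3 of the genes, because they make concrete what such a molecule contains. Each line gives 15 bases of exon in lower case and the first 15 bases of the intron kept in the retained-intron transcript in capitals, 5′ to 3′, with the same place in a spliced transcript of the gene after it. Sequences and positions are from GENCODE M21 on GRCm38 (mm10), and all 3 genes lie on the minus strand.
Pfn1-203, intron 1 of 2, chr11:70654334-70654363: ttcgttagcattacgGTACTGCGAGGCTCG
Pfn1-201, spliced: ttcgttagcattacgccagctgaggttggt
Sf3b1-203, intron 4 of 24, chr1:55016361-55016390: atccttttgcagatgGTAATTCTTTCCCAC
Sf3b1-201, spliced: atccttttgcagatggagggaagactcccg
Slc25a3-208, intron 2 of 7, chr10:91123543-91123572: ccgccgccgtggaagGTGAGGTCGCACCCT
Slc25a3-201, spliced: ccgccgccgtggaagagtacagttgtgaat
All 3 introns open with the letters GT of a regular splice donor, and the tables hold UMIs per transcript, so which intron bases a given molecule covered was not seen.

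Among the named genes, 4 encode RNA-binding proteins or helicases of RNA processing, and whether such genes are more frequent than among all genes tested was not tested. Hnrnpa2b1, an RNA-binding protein of pre-messenger RNA, had 45.1% (95% exact binomial interval 35.2 to 55.3) and 50.0% (35.2 to 64.8) of its UMIs in the retained-intron Hnrnpa2b1-213, against 18% and 10.9% in 3_delta, a rise of 33.1 ± 8.45 percentage points (SD, n = 2 libraries, edgeR diffSpliceDGE adjusted p of the gene 0.00601). Sf3b1, of the U2 snRNP, had 47.7% and 32.4% in Sf3b1-203, which keeps the intron shown, against 10.2% and 7.20% in 3_delta, a rise of 31.3 ± 8.73 points (edgeR adjusted p 0.00554). Srsf6, a serine and arginine rich splicing factor, had 41.9% and 26.7% in Srsf6-204 against 3.70% and 4.85% (edgeR adjusted p 0.00601), on 31 and 30 UMIs of the gene. Its protein-coding Srsf6-203 held 51.6% and 66.7% against 95.1% and 89.7%. Ddx5, an RNA helicase, rose in the nonsense-mediated decay transcript Ddx5-208 by 14.8 points (edgeR adjusted p 0.00554), and its Ddx5-201 held 66.7% and 68.2% against 85.0% and 90.1%. In each of these 4 genes both libraries of cluster 7_delta lay on the same side of both libraries of 3_delta. Because the genes were chosen by a test on these libraries, this is a description.

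Genes of other functions changed in the same way. Pfn1, the actin-binding profilin, had 34.0% and 22.9% of its UMIs in the retained-intron Pfn1-203, against 9.25% and 6.92% in 3_delta and 11.1% and 5.55% in 1_alpha (edgeR adjusted p 0.00288 and 0.00155). Slc25a3, the mitochondrial phosphate carrier, had 18.6% and 14.3% in Slc25a3-208 against 2.12% and 1.66% in 3_delta and 4.29% and 2.93% in 1_alpha (edgeR adjusted p 0.000812 and 0.0368). Isl1, a transcription factor of all islet endocrine types, had 36.2% and 21.8% in the retained-intron Isl1-205 against 13.4% and 6.47% in 3_delta (edgeR adjusted p 0.0171). Hspa5, the chaperone BiP, had 4.35% and 13.8% in Hspa5-206 against 0.499% and 0.992% in 3_delta (edgeR adjusted p 0.00536), and Hspa5-201 held 52.2% and 31.0% against 67.8% and 73.7%. Swi5-205, Hspa8-208, Pkm-205 and Rpl10-207, also retained introns, rose against 3_delta by between 5.77 and 11 points. Top1-203 and Saraf-202, processed transcripts, rose by 13.1 and 21.7 points, the second of them unevenly (13.1% and 40.6% against 5.88% and 4.48%).

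**Figure D5:**
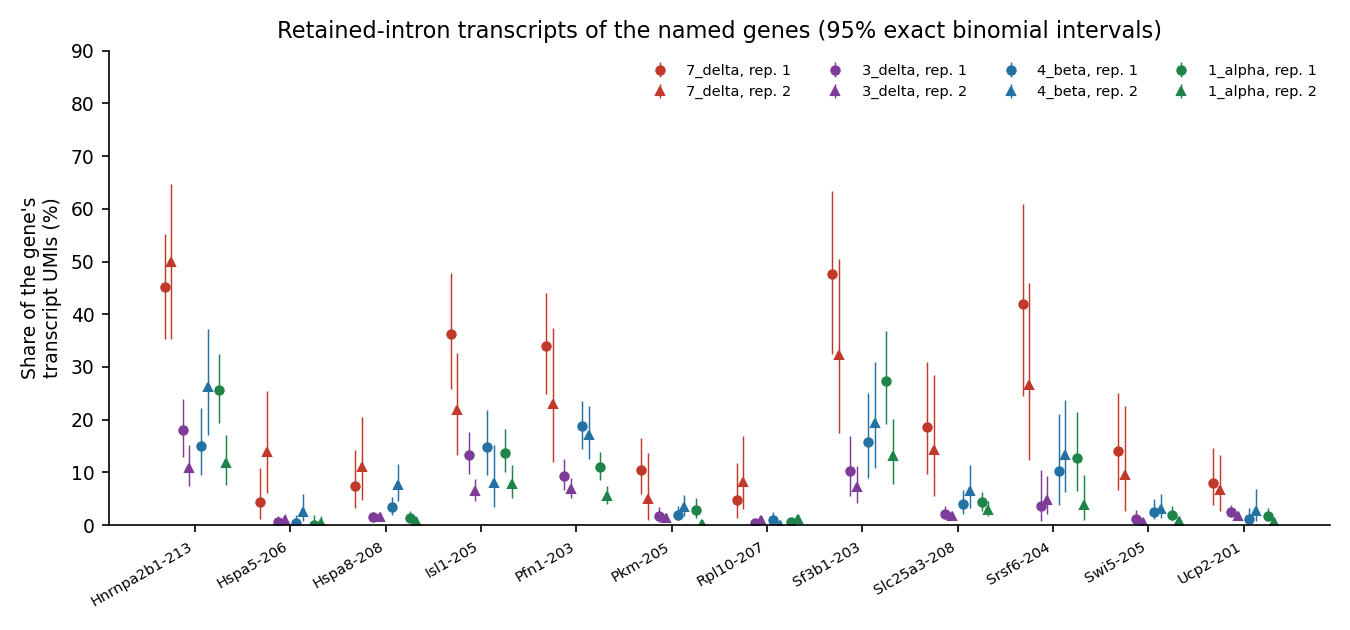
Share (%) of each gene's transcript UMIs in its retained-intron transcript, for 12 transcripts that passed the test against 3_delta or 1_alpha, in 4 clusters and both libraries (circles replicate 1, triangles replicate 2), with 95% exact binomial intervals. Hnrnpa2b1-213 stands at 45.1% and 50.0% in cluster 7_delta and at 10.9% to 26.2% in the other clusters.

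Pcsk2, the prohormone convertase of islet cells, gave the smallest p with a modest change. Its processed transcript Pcsk2-202 held 8.16% and 10.3% of 931 and 427 UMIs, against 2.30% and 2.10% in 3_delta and 1.41% and 0.881% in 1_alpha (edgeR adjusted p 6.93e-06 and 1.61e-15). Shares in 4_beta were 3.87% and 3.78%. Cry2-203, a processed transcript of the clock gene Cry2, held 57.4% and 57.1% against 22.2% and 12.3% in 1_alpha, a rise of 40.0 points (edgeR adjusted p 0.00226). Pax6-207, a protein-coding transcript, went the other way, with 2.04% and 0% against 26.5% and 15% in 3_delta (edgeR adjusted p 0.0258), and 4_beta had 3.74% and 2.02%. It rests on 1 and 0 of 49 and 31 UMIs of the gene in cluster 7_delta.

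Gnas, the stimulatory G protein locus with several promoters, was the gene that passed against 4_beta (edgeR adjusted p 0.0223, and it did not pass without the library block, with RLE scaling or with 4_beta thinned). Its Gnas-211 held 18.3% and 56.5% of 71 and 85 UMIs in cluster 7_delta, against 3.76% and 6.06% in 4_beta and 62.3% and 67.9% in 3_delta. Replicate 2 thus stood near 3_delta and replicate 1 between the clusters, as with the leading hormones. Against 1_alpha, Gnas-221 fell by 23.3 points, from 21.3% and 31.6% to 2.82% and 3.53% (edgeR adjusted p 0.000767 for the gene).

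The mixed hormones of replicate 1 moved with the comparison to 3_delta, so it was repeated with the cells led by Sst alone, a choice made after seeing the data. With 70 and 25 cells, 9 of 2521 genes passed, and 138 had an unadjusted p under 0.05. Among single transcripts, 5 retained-intron transcripts were higher and none lower. Of the 42 genes that passed over the whole cluster, which contains these cells, 8 were among the 9. The leading transcript kept its direction in both libraries in 31 of the 42. Of the 27 genes led by a retained intron, 21 stayed higher in both libraries.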

How the data were processed

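Raw UMI counts of each cell were deposited by the authors in 2 kinds of table, over genes and over transcripts, with a table that lists the clusters of every kept cell. All samples used were the 2 modified 5′ libraries, with 11012364 and 12092393 UMIs in kept cells. Per the submitters' processing notes, Seurat and mm10 were used. Aligner, counter and strand setting are not given in the sources used here, and the tables are marked as a subset. UMIs of every kept cell summed to the total in the authors' table. The members and gene lists were chosen with earlier results of these data known.

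Counts were summed per library and cluster and scaled to CPM. Gene levels were described without a test (pseudocount 5 CPM, 20 UMIs in the higher cluster). Medians of lists cover genes with a mean of at least 20 CPM. Isoform usage was fitted with edgeR 4.0.16 in R 4.3.3 over 24 sums, 12 clusters with at least 20 cells in each library, with library and cluster as terms. Each library gives every cluster, so the library number pairs the sums. Transcripts needed 10 UMIs over the compared clusters and 5% of the gene in either. Of 69994 transcripts, 69626 matched GENCODE M21 (99.9% of UMIs). Genes were named by size: per comparison the 10 furthest up and 10 furthest down by the smaller of the 2 library ratios, with at least 50 CPM in the higher cluster and without predicted, mitochondrial and ribosomal protein genes, together with markers and up to 4 members of each of 11 lists. Isoforms were named for up to 12 genes per comparison by change in share, with at least 30 UMIs of the gene per cluster and library. In the isoform text, retained-intron and processed transcripts of those genes that passed are also given. Some genes and sequences that this rule names are not reported here. Scripts were tested on simulated data. Binomial and Poisson intervals cover counting error only. Alternatives were other scalings, filters, pseudocounts, thinning, no library block, leaving out a library or likely doublets (Scrublet in scanpy 1.11.5), and only cells led by Sst.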

Additional observations from a re-analysis of the deposited data

How the results depend on the processing

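Counts of genes moved with the depth, the filters, the scaling and the model. Without the replicate block of the library, 14, 0 and 9 genes passed for isoform usage against 3_delta, 4_beta and 1_alpha, in place of 42, 1 and 27, and all 14 and all 9 were among those of the blocked fit. Other settings gave 25 and 5 genes against 3_delta and 4_beta at 30 UMIs per transcript, 2 against 4_beta with no filter on share, none against 4_beta with RLE scaling, 8 and 1 against 3_delta and 1_alpha with the comparison cluster thinned, 22 and 10 with only the clusters compared, and 9 against 3_delta with only the cells led by Sst, an alternative chosen after seeing the data. The cause of these changes was not tested, beyond that fewer UMIs or samples enter some fits. With 1 library left out the isoform test has no residual spread and was not run. None of 25 named share differences changed direction, but these genes were chosen because they passed a test on both libraries. That choice nearly fixes the direction, so it is no check of the result. Genes at least 2-fold different against 3_delta, 4_beta and 1_alpha, 550, 276 and 609 in all, became 1110, 464 and 996 with TMM scaling, 90, 69 and 68 with cells thinned to 500 UMIs, 274, 171 and 228 at 50 UMIs and 1595, 878 and 2263 with no minimum. A pseudocount of 20 CPM gave 295 and 162 against 3_delta and 4_beta, and only the cells led by Sst gave 349 against 3_delta. Leaving out a library gave 1437 to 1769, 888 to 974 and 1395 to 1854. Among values per cell, given as means of the libraries, Gcg was detected in 57.0% of cells at 1000 UMIs and 81.4% without thinning in place of 52.2%, a clear lead of Ppy was found in 2.37% in place of 4.90%, and the median number of genes was 646 and 1535 in place of 331.5. The libraries differed in hormones, so that leaving one out gave an Iapp lead in 3.70% to 50.8% of cells, a Gcg lead in 0% to 17.3%, an Sst lead in 23.7% to 92.6% and Sst detection in 43.7% to 100%.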
